A study of Mus musculus with 9 samples.

Results

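Fam19a1, Fam19a2, Fam19a3, Fam19a4 and Fam19a5 are the 5 genes of the TAFA family, and all 5 were among the 21536 genes of a Dropseq count table from the mouse trigeminal ganglion. They were taken by name. The table held 6997 cell barcodes from 9 Dropseq runs of wild type FVB/N mice, labelled as 3 to 6 weeks old (the study's methods give a narrower range for the Dropseq runs), and each run pooled the ganglia of several mice of both sexes. Neurons had been enriched on a Percoll gradient and by depletion of glia and other non-neuronal cells, and no treatment was compared. Barcodes did not name their run, so the 9 runs count here as 1 pooled sample: there is no replicate spread, no test between groups was possible, and every interval below is a 95% interval for counting error only.

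TAFA genes encode small secreted proteins that resemble chemokines and are made mainly by neurons of the brain and of sensory ganglia. Several of them bind neurexins, presynaptic adhesion molecules, and individual members have been reported as ligands of G protein-coupled receptors such as Gpr1 and S1pr2. Fam19a4 is best known in dorsal root ganglia, where it marks C low-threshold mechanoreceptors, the unmyelinated neurons that respond to light touch, and where its protein restrains mechanical hypersensitivity.

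Neurons were barcodes with 500 to 7500 genes, a UMI (unique molecular identifier, 1 counted mRNA molecule) of at least 3 of the 6 genes Tubb3, Scn9a, Snap25, Nefl, Nefm and Uchl1, and no Epcam. There were 3855 of them, 55.1% of all barcodes, with 1000 to 55655 UMIs each (median 3014). They were put in 7 groups by the first criterion met, none of which uses a TAFA gene. The Trpm8 group (the cold and menthol channel, 2 or more UMIs) had 244 neurons and the Mrgprd group (a receptor of non-peptidergic nociceptors, 2 or more) had 379. The Mrgpra3 group (an itch receptor, 1 or more) had 49 and the Nppb group (an itch neuropeptide, 2 or more) had 57. The Cd34 group (1 or more) had 320, the Nefh group (the heavy neurofilament of large myelinated neurons, 5 or more, with no Trpv1) had 450, and the Calca/Trpv1 group (the CGRP gene, 5 or more, with the heat channel Trpv1) had 916. The other 1440 neurons met no criterion and are called unassigned. They were the shallowest, with a median of 1827 UMIs against 3406 to 5836 in the groups.

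Independent marker genes went with the labels in 6 of the 7 groups. Foxp2 stood at 108 CPM (UMIs of a gene per 1000000 UMIs of the cells) in the Trpm8 group against 5.64 in other neurons, Agtr1a at 85.3 against 2.55 in the Mrgprd group, Sst at 1162 against 5.43 in the Nppb group, and P2ry1 at 305 against 36.3 in the Cd34 group. S100b reached 1461 against 166 in the Nefh group, and Tac1 7212 against 1178 in the Calca/Trpv1 group. In the Mrgpra3 group, Mrgprx1 had only 3 UMIs and Mrgprb4 had 0 (3 counts would be 9.28 CPM), so that group rests on its own criterion. The paper places Mrgprx1 mainly in other clusters and reports Mrgprb4 as absent from its trigeminal data. Neither gene could therefore check this label. Of the neurons, 349 met more than 1 group criterion and 500 carried at least 3 markers of another cell type, glia in 335 of them. The summed level of the 10 glia markers was 169 to 575 CPM in the 7 groups but 9816 CPM in unassigned neurons, against 132533 CPM in glia. The part of these cells in the values of unassigned neurons was not tested. There were 6 barcode sequences that occurred in 2 columns of the table, and 11 of these 12 columns were neurons.

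The 5 genes share a core of coding sequence. Over the aligned coding bases, identity ran from 45.3% (Fam19a1 and Fam19a5) to 64.7% (Fam19a3 and Fam19a4), and Fam19a5 was below 51% against every other member. The most alike stretch of 90 bases is shown here for 4 of the genes, 5′ to 3′ on the coding strand, from the GENCODE M21 transcripts on GRCm38 (mm10, the build named in the submitters' processing notes), with capitals for the 44 bases that all 5 genes share:
Fam19a1: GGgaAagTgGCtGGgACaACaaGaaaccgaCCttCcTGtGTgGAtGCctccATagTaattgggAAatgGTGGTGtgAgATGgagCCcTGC
Fam19a2: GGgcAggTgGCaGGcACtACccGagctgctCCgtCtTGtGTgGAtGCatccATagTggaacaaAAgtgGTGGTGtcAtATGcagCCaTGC
Fam19a3: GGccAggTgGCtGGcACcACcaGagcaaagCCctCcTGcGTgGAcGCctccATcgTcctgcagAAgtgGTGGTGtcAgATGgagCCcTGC
Fam19a5: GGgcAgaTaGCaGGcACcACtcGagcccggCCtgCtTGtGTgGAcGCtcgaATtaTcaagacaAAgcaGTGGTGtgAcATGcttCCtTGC

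In each of these 4 this stretch is coding sequence split over 2 exons, 46 bases in the upstream exon and 44 in the downstream one. The pieces lie at chr6:96523430-96523475 and chr6:96649062-96649105 (+ strand) for Fam19a1, at chr10:123704466-123704511 and chr10:123705700-123705743 (+) for Fam19a2, and at chr3:104773040-104773085 and chr3:104772261-104772304 (- strand) for Fam19a3. For Fam19a5 they lie at chr15:87681584-87681629 and chr15:87720502-87720545 (+). Fam19a1 (chr6:96113154-96657198) and Fam19a4 (chr6:96831203-97060413) are neighbours that point towards each other, with 174004 bases and 0 annotated genes between them. Fam19a3 (chr3:104767406-104781840) is the only member whose exons overlap another annotated gene on its strand, Gm43584, which shares 275 exon bases with it. Gm43584 was not among the genes of the count table. At its start Fam19a3 also overlaps Ppm1j, a phosphatase gene of the opposite strand, by 785 bases, none of them in an exon of both genes. The sources used here do not state how strand was treated in counting.

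All 5 genes were sparse, and each had its own distribution over the neuron groups. At least 1 member was seen in 1320 of the 3855 neurons (34.2%). Fam19a4 was the most abundant, with 1874 UMIs in 594 neurons (15.4%), followed in UMIs by Fam19a2 with 714 in 379 neurons (9.83%), Fam19a3 with 516 in 345 (8.95%), Fam19a1 with 445 in 184 (4.77%) and Fam19a5 with 241 in 207 (5.37%). Levels in groups are compared within a gene, as CPM without a length term, because UMI totals of different genes also depend on how well each was captured.

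**Figure D1:**
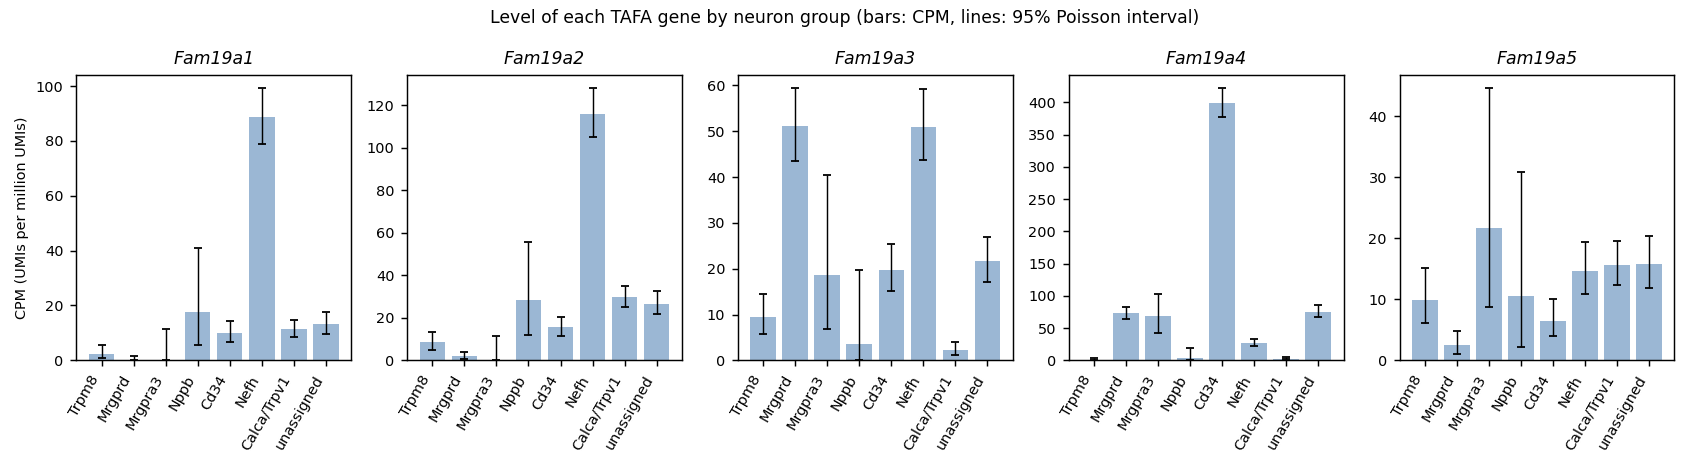
CPM of each TAFA gene (y axis, a separate linear scale for each gene) in the 7 neuron groups and in unassigned neurons (x axis), with 95% Poisson intervals for counting error. Fam19a4 peaks in the Cd34 group at 399 CPM, Fam19a1 and Fam19a2 in the Nefh group at 88.6 and 116 CPM, and Fam19a3 is level between the Mrgprd and Nefh groups at 51.0 and 50.9 CPM.

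Fam19a4 was a gene of the Cd34 group. There it stood at 399 CPM (377 to 422), and 65.9% of its UMIs in neurons came from these 320 cells. The middle of its order was formed by unassigned neurons at 75.5 CPM (66.8 to 85.1), the Mrgprd group at 73.1 (64.1 to 82.9) and the Mrgpra3 group at 68.1 (42.7 to 103), whose intervals overlap. The Mrgpra3 value rested on 1 neuron with 18 of the 22 UMIs and was 12.8 CPM (3.49 to 32.8) without it.

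The Nefh group followed with 27.1 CPM (21.8 to 33.2) of Fam19a4, unevenly. Its 91 neurons with 2 or more UMIs of Ntrk2, the BDNF receptor, had 11.6 CPM (6.02 to 20.3), its 82 others with 5 or more of Calca had 8.12 (3.27 to 16.7), and the remaining 277 had 48.5 (38.0 to 61.0). The remaining neurons were thus 4.17-fold above the Ntrk2 subset (log2 2.06, 1.17 to 3.08) and 5.97-fold above the Calca subset (log2 2.58, 1.46 to 3.94). The gene was close to absent elsewhere, at 3.52 CPM (1 UMI) in the Nppb group, 2.87 (1.57 to 4.82) in the Calca/Trpv1 group and 0.943 (0.114 to 3.41) in the Trpm8 group. The Cd34 group was thus 5.46-fold above the Mrgprd group (log2 2.45, 2.25 to 2.66), and the Mrgprd group 2.70-fold above the Nefh group (log2 1.43, 1.08 to 1.79).

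Per cell, 237 of the 320 Cd34 neurons (74.1%, 68.9 to 78.8) had a Fam19a4 UMI, with a median of 2 and a highest count of 47 over all cells of the group. In 91 of them there were 5 or more. If every Cd34 neuron had held Fam19a4 at the group's mean level, 84.4% would have shown a UMI at their depths, so the gene was spread less evenly than that. Over 4 equal bins of depth, the level was 470, 417, 411 and 384 CPM from the shallowest to the deepest, while the share of cells with a UMI was 50%, 70%, 88.8% and 87.5%. The intervals of the 4 levels overlap, while the share was lowest in the shallow cells.

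Depth also bears on the groups with fewer positive cells. The Mrgprd group had Fam19a4 in 139 of 379 neurons (36.7%), close to the 39.3% that an even level would give, and with at most 7 UMIs in a cell. After each cell was thinned to 1000 UMIs, the share was 31.0% in the Cd34 group, 7.39% in the Mrgprd group, 2.46% in the Nefh group and 0.0832% in the Trpm8 group. Red blood cells, which should lack the gene, had 1 of 350 cells with a UMI (0.286%, 0.151% thinned, at a median of 1408 UMIs). The Trpm8 group, with 2 of 244 (0.820%, median 5671 UMIs), was at that background.

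**Figure D2:**
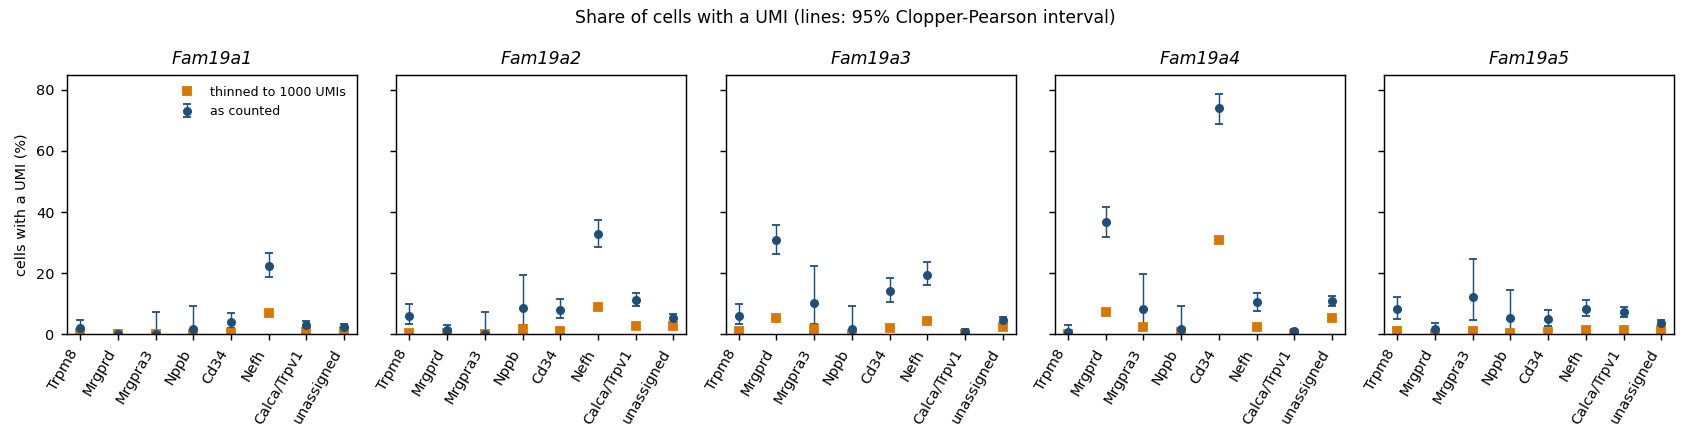
Percent of cells with at least 1 UMI of each TAFA gene (y axis) in each neuron group (x axis), as counted (circles, with 95% Clopper-Pearson intervals) and after thinning every cell to 1000 UMIs (squares). Fam19a4 in the Cd34 group is the highest point in both, at 74.1% and 31.0%.

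Within the Cd34 group, Th, the rate-limiting enzyme of dopamine synthesis, differed between neurons with and without Fam19a4. It was at 97.0 CPM in the 237 neurons with Fam19a4 and 15.4 CPM in the 83 without. Cells of another type were also unequal between the 2 sets. Cd34 is made by vascular endothelium too, and the 9 endothelium markers summed to 58.6 CPM in neurons with Fam19a4 against 357 CPM in those without (109 CPM in the whole group). The summed glia markers went the other way, at 357 CPM with Fam19a4 against 281 CPM without (log2 0.34, 0.09 to 0.61). Of the 320 neurons, 17.2% carried at least 3 glia markers and 3.125% at least 3 endothelium markers.

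Without the 117 of the 320 neurons that could be 2 cells (possible doublets, those that met more than 1 group criterion or carried 3 markers of another cell type), Th was at 173 CPM in 154 neurons with Fam19a4 and 46.8 CPM in 49 without (log2 1.89, 0.88 to 3.12). Cd34, the gene that chose the group, was at 412 against 533 CPM in these cells (log2 -0.37, -0.70 to -0.03). In all 320 neurons it went the other way, at 341 against 276 CPM (log2 0.31, 0.05 to 0.57). Without possible doublets the interval of the difference included equality for 5 other genes of the group's class. P2ry1, an ADP receptor, was at 313 against 351 CPM, Gm7271 at 1195 against 1053, and Piezo2, the touch channel, at 1478 against 1568. Cdh9, a cadherin, was at 164 against 205 CPM and Scin, an actin-severing protein, at 94.7 against 81.9. In all 320 neurons these 5 genes were higher with Fam19a4, P2ry1 for example at 338 against 141 CPM and Piezo2 at 1560 against 927, so those differences depended on the cells left out. Slc17a8, a vesicular glutamate transporter of this class, was at 17.5 against 5.78 CPM in all 320 neurons (log2 1.59, -0.04 to 3.93). It was not recomputed without possible doublets. Neurons with Fam19a4 were deeper in both versions, with medians of 7356 against 3604 UMIs and of 4957 against 3184. Counted as cells at like depths over all 320 neurons, Fam19a4 met Th in 44 cells against 39.9 expected (ratio 1.10, 0.801 to 1.48), an interval that includes 1. So does that of Slc17a8 (ratio 1.22, 0.861 to 1.67). With Fam19a4 in 237 of the 320 neurons, these ratios could not rise far above 1. The level of Fam19a4 in the Cd34 group without possible doublets was 423 CPM. Whether the possible doublets were 2 cells was not tested. Neurons that truly carry markers of 2 groups meet the criteria too, and the neurons left were shallower. The paper did not regard doublets as a significant problem in these data.

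Fam19a1 was a gene of the Nefh group, at 88.6 CPM (78.9 to 99.2) with 67.6% of its UMIs in neurons. All other groups lay far below: the Nppb group at 17.6 CPM, unassigned neurons at 13.2 (9.69 to 17.5), the Calca/Trpv1 group at 11.3 (8.51 to 14.7) and the Cd34 group at 10.02 (6.81 to 14.2). The order among these 4 is not resolved, and all 5 Nppb UMIs came from 1 neuron that also held 4 Fam19a2 UMIs. In the Cd34 group 13 of 320 neurons had Fam19a1, but only 1 of the 203 left without possible doublets. The Trpm8 group had 2.36 CPM (0.765 to 5.50) and the Mrgprd group 0.306 (1 UMI in 379 neurons). The Mrgpra3 group had 0 UMIs, which with 3 counts as the limit allows up to 9.28 CPM.

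The Nefh group was not uniform for Fam19a1. Of its 450 neurons, 101 (22.4%, 18.7 to 26.6) had a UMI, 15 had 5 or more and the highest had 20. An even level would have given a UMI in 38.1%. Neurons of this group with 5 or more Calca UMIs and fewer than 2 of Ntrk2 numbered 82 and had Fam19a1 at 158 CPM (132 to 187) and in 45.1% of cells. The 91 with 2 or more Ntrk2 UMIs had 50.5 CPM (37.7 to 66.2) and 15.4%, and the other 277 had 75.1 CPM (61.9 to 90.3) and 18.1%. The Calca subset was thus 3.13-fold above the Ntrk2 subset (log2 1.64, 1.17 to 2.13) and 2.10-fold above the rest (log2 1.07, 0.70 to 1.44). In the Ntrk2 subset 14 of the 52 UMIs were in 1 neuron, without which the level was 37.7 CPM (26.7 to 51.7).

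Taken from the other side, the 101 Nefh neurons with Fam19a1 had Calca at 3302 CPM against 937 CPM in the 349 without. They had Ntrk2 at 41.2 against 246 CPM and the calcium buffer Pvalb at 63.0 against 150 CPM. Counted as cells at like depths, Pvalb was seen with Fam19a1 in 7 cells against 19.0 expected (ratio 0.368, 0.148 to 0.759). For Calca (ratio 1.16, 0.884 to 1.51) and Ntrk2 (ratio 0.674, 0.427 to 1.01) the interval of this ratio included 1. S100b, carried by most of the group, differed less (1695 against 1327 CPM). As for Fam19a4, Nefh neurons with a member were deeper than those without, here with a median of 7433 UMIs against 3601. Without possible doublets (the same 2 criteria as in the Cd34 group), Calca was at 3192 against 931 CPM, Ntrk2 at 57.5 against 248 and Pvalb at 92.2 against 168.

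In the Calca/Trpv1 group Fam19a1 was in neurons without the irritant channel Trpa1 more than in those with it, at 18.5 CPM (13.2 to 25.2) against 5.54 (3.10 to 9.13). Of the 15 UMIs in neurons with Trpa1, 10 were in 1 cell, and without possible doublets their level was 2.48 CPM (0.806 to 5.79). In cells, Fam19a1 and Trpa1 met in 4 against 15.5 expected at their depths (ratio 0.258, 0.0704 to 0.661).

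**Figure D3:**
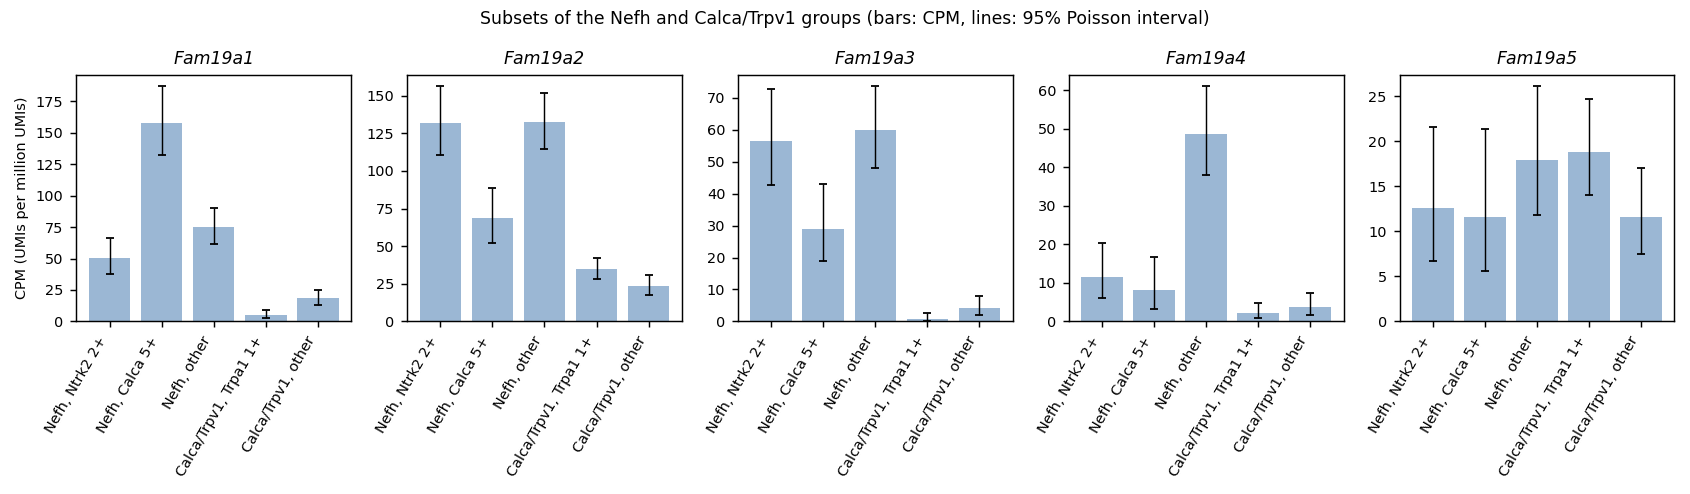
CPM of each TAFA gene (y axis, a separate linear scale for each gene) in subsets of the Nefh group (Ntrk2 2 or more UMIs, otherwise Calca 5 or more, other) and of the Calca/Trpv1 group (with and without a Trpa1 UMI), with 95% Poisson intervals. Fam19a1 is highest in the Calca subset (158 CPM), whereas Fam19a2 is level in the Ntrk2 and other subsets (both 132 CPM).

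Fam19a2 was also highest in the Nefh group, at 116 CPM (105 to 128), with 55.2% of its UMIs in neurons. The Calca/Trpv1 group was at 29.8 CPM (25.1 to 35.0), the Nppb group at 28.2 (12.2 to 55.5) and unassigned neurons at 26.7 (21.6 to 32.6), and these 3 do not differ beyond counting error. The Nppb value was 15.8 CPM (4.30 to 40.4) without 1 neuron.

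Below these stood the Cd34 group at 15.5 CPM (11.4 to 20.6) and the Trpm8 group at 8.49 (5.03 to 13.4). In the Cd34 group 26 of 320 neurons had Fam19a2, but only 8 of the 203 left without possible doublets. The Mrgprd group was at 1.83 (0.673 to 3.99), and the Mrgpra3 group at 0 UMIs (allowing up to 9.28 CPM). Nefh over Calca/Trpv1 was 3.90-fold (log2 1.96, 1.68 to 2.25).

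In the Nefh group 148 of 450 neurons (32.9%, 28.6 to 37.4) had a Fam19a2 UMI against 44.6% for an even level. Its level in this group was higher in deeper cells: over 4 equal bins of depth it was 59.8 (29.8 to 107), 93.7, 114 and 125 CPM (111 to 141), and the intervals of the shallowest and the deepest bin do not overlap. Its order among the Nefh subsets was not that of Fam19a1. The Ntrk2 subset and the other neurons were level at 132 CPM each (111 to 156 and 115 to 152), with 52.7% and 29.2% of cells positive at medians of 7083 and 3436 UMIs. The Calca subset was at 68.5 CPM (52.1 to 88.3), but 32 of its 59 UMIs were in a single neuron. It was at 33.1 (21.8 to 48.2) without that neuron and at 29.2 (16.0 to 49.0) without possible doublets. Nefh neurons with Fam19a2 had Calca at 617 CPM against 3307 CPM in those without, and Ntrk2 at 200 against 135 CPM. Those with Fam19a2 were deeper (median 8106 against 3122 UMIs). Counted as cells at like depths, Fam19a2 met Calca in 60 neurons against 75.4 expected (ratio 0.796, 0.607 to 1.02) and Ntrk2 in 65 against 51.0 (ratio 1.27, 0.984 to 1.62), and both intervals included 1. In the Calca/Trpv1 group Fam19a2 was somewhat higher with Trpa1 than without, at 34.7 against 23.6 CPM (log2 0.56, 0.05 to 1.08). In cells the 2 genes met in 71 against 56.9 expected (ratio 1.25, 0.974 to 1.57), an interval that included 1, and without possible doublets the levels were 34.2 (26.6 to 43.3) and 24.0 CPM (17.4 to 32.4).

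Fam19a3 had no single group. The Mrgprd group was at 51.0 CPM (43.6 to 59.4) and the Nefh group at 50.9 (43.6 to 59.1), a log2 difference of 0.00 (-0.31 to 0.32). They held 32.4% and 33.5% of its UMIs in neurons. Next came unassigned neurons at 21.6 CPM (17.1 to 27.0), the Cd34 group at 19.7 (15.1 to 25.3) and the Mrgpra3 group at 18.6 (6.81 to 40.4), whose intervals overlap. The Trpm8 group was at 9.43 CPM (5.76 to 14.6), the Nppb group at 3.52 (1 UMI) and the Calca/Trpv1 group at 2.26 (1.13 to 4.04). Mrgprd over Cd34 was 2.59-fold (log2 1.37, 0.94 to 1.82).

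In the Mrgprd group 117 of 379 neurons had a Fam19a3 UMI (30.9%), which equals the 30.9% that an even level would give, with at most 5 UMIs in a cell. At so few UMIs per cell, this share cannot exclude moderate differences between cells. In the Nefh group 88 of 450 neurons had it (19.6% against 26.5% for an even level) with up to 14 UMIs. In that group the Ntrk2 subset was at 56.3 CPM (42.7 to 72.8), the other neurons at 59.8 (48.1 to 73.5) and the Calca subset at 29.0 (18.8 to 42.8). The neuron with 32 Fam19a2 UMIs held 14 of the 25 Fam19a3 UMIs of the Calca subset, which was at 13.5 CPM (6.73 to 24.1) without it and at 8.34 (2.27 to 21.4) without possible doublets. Nefh neurons with Fam19a3 had Ntrk2 at 272 against 119 CPM and Ntrk3, the neurotrophin-3 receptor, at 110 against 54.2 CPM, and Calca at 640 against 2403 CPM. They were deeper, with a median of 7805 UMIs against 3600. Counted as cells at like depths, the ratio was 1.46 for Ntrk2 (1.07 to 1.96), while the intervals for Ntrk3 (1.36, 0.973 to 1.86) and Calca (0.878, 0.624 to 1.20) included 1. Pvalb was seen with Fam19a3 in 9 cells against 16.9 expected (ratio 0.533, 0.244 to 1.01). In the Mrgprd group neurons with and without Fam19a3 had Agtr1a at 86.7 and 84.1 CPM, Mrgprd at 644 and 718 (log2 -0.16, -0.28 to -0.04), and Otoa at log2 -0.34 (-0.67 to -0.02). Without possible doublets the intervals of all 3 included equality. Mrgprd is the gene that chose this group, and over all 379 neurons those with Fam19a3 were deeper (median 9153 against 4584 UMIs). The Mrgprd difference can thus not be told apart from that of depth.

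The gene whose pattern was most like that of Fam19a3 was its overlapping neighbour Ppm1j (Pearson r = 0.96 over 12 disjoint sets of neurons, on log2(CPM + 10)). Ppm1j had 4030 UMIs in neurons against 516 of Fam19a3. Its level was 462 CPM in the Mrgprd group, 319 in the Nefh group, 196 in the Cd34 group and 12.2 in Calca/Trpv1 neurons with Trpa1. There were 0.110 Fam19a3 UMIs for each Ppm1j UMI in the Mrgprd group, 0.100 in the Cd34 group and 0.159 in the Nefh group, and all 12 sets lay between 0.0606 and 0.168. Both genes were thus high and low in the same sets. Over all neurons the 2 genes were seen together in 296 cells against 161 expected at their depths (ratio 1.84, 1.64 to 2.06). Within the Nefh group it was 80 against 59.8 (ratio 1.34, 1.06 to 1.67) and among unassigned neurons 39 against 13.9 (ratio 2.80, 1.99 to 3.83). Within the Mrgprd group, where 84.7% of the neurons had Ppm1j and the ratio could hardly exceed 1, it was 116 against 107 (ratio 1.09, 0.898 to 1.30). Whether UMIs of one gene were counted for the other was not tested.

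**Figure D4:**
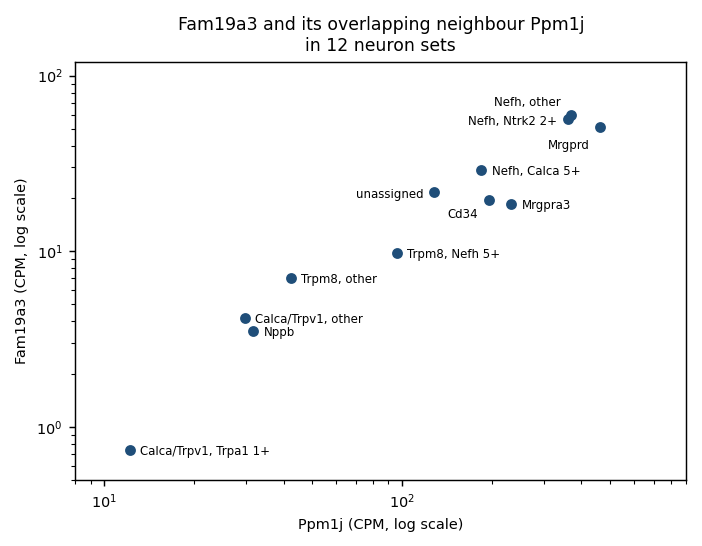
Fam19a3 (y axis, CPM, log scale) against Ppm1j (x axis, CPM, log scale) in 12 disjoint sets of neurons, 1 point a set. The sets run from 0.738 CPM of Fam19a3 in Calca/Trpv1 neurons with Trpa1 to 59.8 CPM in the other Nefh neurons, and Ppm1j rises with it.

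Fam19a5 was low and spread over most groups, and never above 4 UMIs in a cell. The Mrgpra3 group was nominally highest at 21.7 CPM, but on 7 UMIs (8.71 to 44.6). Unassigned neurons were at 15.7 CPM (11.9 to 20.4), the Calca/Trpv1 group at 15.6 (12.3 to 19.5), the Nefh group at 14.7 (10.9 to 19.4), the Nppb group at 10.6 (3 UMIs) and the Trpm8 group at 9.90 (6.13 to 15.1), and the intervals of all 6 overlap. The Cd34 group was at 6.46 CPM (3.95 to 9.98), an interval that overlaps those of the Trpm8, Nppb and Mrgpra3 groups. The Mrgprd group was at 2.45 (1.06 to 4.82), 6.38-fold below the Calca/Trpv1 group (log2 2.67, 1.62 to 3.94).

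Unlike the other members, Fam19a5 was also present in glia. Of 248 glia, 12 had a UMI, each of them 1 (4.84%, 2.52 to 8.30), which is 27.4 CPM (14.1 to 47.8) and 2.38-fold the level of all neurons (log2 1.25, 0.28 to 2.08). After thinning to 1000 UMIs the share was 2.41% in glia, 1.28% in neurons and 0.682% in anterior pituitary cells, with 0 of 350 red blood cells holding a UMI (3 counts allow a share of cells with a UMI of up to 0.857%). Of the other members, glia held 2 UMIs of Fam19a2, 1 of Fam19a4 and 0 of Fam19a1 and Fam19a3. Anterior pituitary cells held 6 UMIs of Fam19a2 (14.4 CPM, 5.28 to 31.3) and 1 of Fam19a4. The 112 vascular endothelial cells held 1 UMI of Fam19a1 and 0 of the other 4, and the 25 olfactory sensory neurons 0 of all 5, where even 3 counts would be 92.3 CPM.

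Set against all genes, 3 members stood out in 1 group each. Of the 12114 genes with at least 50 UMIs in neurons, 1.11% were at least 4-fold higher in the Cd34 group than in all other neurons. Fam19a4 was the 1 member among them, with a log2 ratio of 3.48 (3.34 to 3.62) that ranked 27. In the Nefh group 1.51% of genes passed, and 2 members did: Fam19a1 with a log2 ratio of 3.43 (3.14 to 3.73, rank 24) and Fam19a2 with 2.67 (2.45 to 2.89, rank 73).

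No member was 4-fold higher in another group. The share of genes that passed was 1.48% in the Mrgprd group, where Fam19a3 had a log2 ratio of 1.37 (1.09 to 1.64). It was 0.933% in the Mrgpra3 group, where Fam19a5 had a ratio of 0.93 (-0.40 to 1.997). In the Trpm8, Nppb and Calca/Trpv1 groups, with 0.776%, 1.17% and 1.35% of genes past the fold, all 5 members stayed below it.

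In the other direction, being at least 4-fold lower than other neurons was more common among all genes, and the folds of members with few UMIs are loose. In the Mrgprd group 10.3% of genes were that much lower, as were 3 members: Fam19a1 with a log2 ratio of -6.36 (-11.7 to -3.88, on 1 UMI), Fam19a2 with -4.45 (-5.90 to -3.32) and Fam19a5 with -2.43 (-3.66 to -1.43). In the Trpm8 group it was 7.73% of genes and 3 members, Fam19a4 (-6.72, -9.77 to -4.87, on 2 UMIs), Fam19a1 (-3.31) and Fam19a2 (-2.12). In the Calca/Trpv1 group it was 4.52% of genes and 2 members, Fam19a4 at -5.33 (-6.21 to -4.58) and Fam19a3 at -3.80 (-4.81 to -2.95).

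The shares were 12.8% in the Nppb group, with Fam19a4 (-4.69) and Fam19a3 (-2.82) on 1 UMI each, and 13.5% in the Mrgpra3 group, with Fam19a1 and Fam19a2 at 0 UMIs. Both groups are small, and these shares and members are by the UMIs as counted. With every gene under 3 counts in the group set to 3, 0.883% of genes and 1 member, Fam19a4, were at least 4-fold lower in the Nppb group, and 1.21% of genes and 0 members in the Mrgpra3 group. The members lower in the Mrgprd, Trpm8 and Calca/Trpv1 groups were the same under that rule, with 8.93%, 5.1% and 4.52% of genes. In the Cd34 and Nefh groups (6.37% and 3.35% of genes) 0 members were. Most Cd34 neurons with Fam19a1 or Fam19a2 were possible doublets, and the folds of these members there were not recomputed without them.

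Single neurons seldom showed more than 1 member. Of the 3855 neurons, 2535 (65.8%) had no TAFA UMI, 1004 (26.0%) had 1 member, 258 had 2, 45 had 3, 11 had 4 and 2 had all 5. Neurons with more members were deeper, with a median of 2385 UMIs at 0 members, 4494 at 1 and 9440 at 2. For that reason the number of neurons with both members of a pair was set against the number expected if the members were independent of each other among neurons of similar depth (10 bins). Observed over expected is called the overlap ratio here: above 1 is overlap, below 1 exclusion.

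The clearest overlap was between Fam19a1 and Fam19a2. The pair was seen in 66 neurons against 28.0 expected, a ratio of 2.35 (1.82 to 2.99), which is 35.9% of the neurons with Fam19a1 and 17.4% of those with Fam19a2. Fam19a3 and Fam19a4 met in 130 neurons against 85.9 (ratio 1.51, 1.26 to 1.80), and Fam19a2 and Fam19a3 in 80 against 56.4 (ratio 1.42, 1.12 to 1.76).

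Exclusion was clearest for the chromosomal neighbours Fam19a1 and Fam19a4. They met in 15 neurons against 43.5 expected, a ratio of 0.345 (0.193 to 0.569), or 8.15% of the neurons with Fam19a1 and 2.53% of those with Fam19a4. Fam19a4 also met Fam19a5 (25 against 49.3, ratio 0.507, 0.328 to 0.749) and Fam19a2 (54 against 87.4, ratio 0.618, 0.464 to 0.806) less often than expected. For the other 4 pairs the interval included 1: Fam19a1 with Fam19a3 (0.887) and Fam19a5 (1.31), Fam19a5 with Fam19a2 (1.21) and Fam19a3 (0.709).

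**Figure D5:**
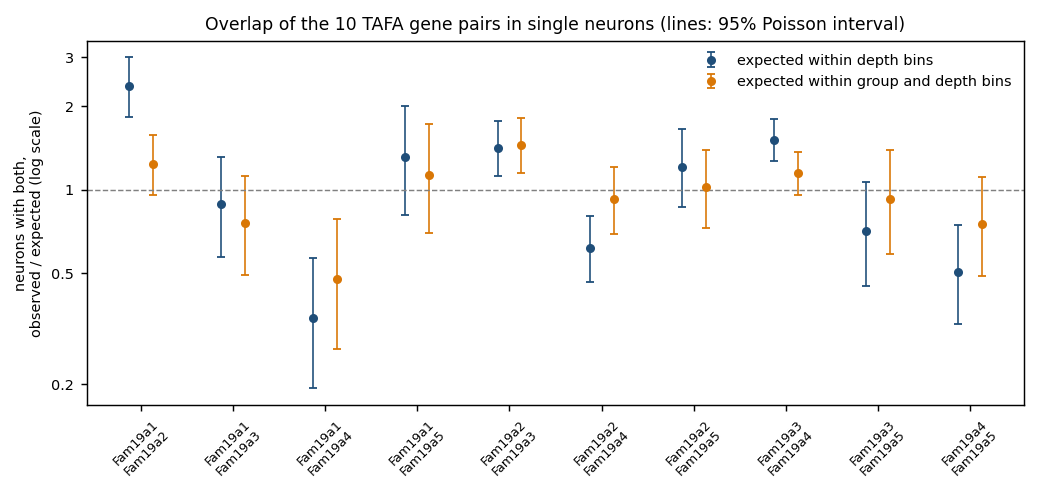
Neurons with UMIs of both members over the number expected (y axis, log scale) for the 10 pairs of TAFA genes (x axis), with 95% Poisson intervals, where the expectation was taken within bins of depth (left point of each pair) or within neuron group and depth (right point). The dashed line at 1 is independence, and with groups taken into account only the Fam19a1 and Fam19a4 pair (0.478) and the Fam19a2 and Fam19a3 pair (1.45) have intervals that leave it out.

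Most of these ratios moved towards 1 once the neuron group was taken into account. With the expectation taken within each neuron group as well as within depth, Fam19a1 and Fam19a2 had a ratio of 1.23 (0.954 to 1.57), Fam19a3 and Fam19a4 1.15 (0.959 to 1.36), Fam19a2 and Fam19a4 0.922 (0.693 to 1.20) and Fam19a4 and Fam19a5 0.754 (0.488 to 1.11). All 4 intervals then included 1. The ratio of Fam19a1 and Fam19a4 was 0.478 (0.267 to 0.788) and the overlap of Fam19a2 and Fam19a3 1.45 (1.15 to 1.81). Unassigned neurons counted as 1 set in these ratios. Without possible doublets, 3088 neurons were left, and these last 2 ratios were 0.455 (0.183 to 0.936, 7 neurons against 15.4 expected) and 1.47 (1.08 to 1.96, 47 against 31.9).

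In the Nefh group, which held 101 of the 184 neurons with Fam19a1, that gene and Fam19a4 met in 9 neurons against 14.7 expected (ratio 0.613, 0.280 to 1.16), and without possible doublets the ratio was 0.506 (0.164 to 1.18), so both intervals included 1. Fam19a1 and Fam19a2 met there in 44 neurons against 44.0 expected (ratio 0.999, 0.726 to 1.34). Fam19a2 and Fam19a3 met in 54 against 39.9 (ratio 1.35, 1.02 to 1.76), Fam19a3 and Fam19a4 in 22 against 13.3 (ratio 1.65, 1.03 to 2.496), and Fam19a1 and Fam19a3 in 16 against 25.9 (ratio 0.619, 0.354 to 1.005). In the Mrgprd group Fam19a3 and Fam19a4 met in 54 neurons against 53.6 (ratio 1.01, 0.757 to 1.31), and 0 of the 379 neurons had 3 members. Without possible doublets the Nefh ratios were 1.33 (0.923 to 1.86) for Fam19a2 and Fam19a3, whose interval then included 1, and 1.89 (1.06 to 3.12) for Fam19a3 and Fam19a4. Among unassigned neurons, which are no single class, Fam19a1 and Fam19a2 met in 8 against 2.15 expected (ratio 3.72, 1.61 to 7.33) and Fam19a2 and Fam19a3 in 14 (18.4% of those with Fam19a2, ratio 3.497, 1.91 to 5.87).

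The Cd34 group had few neurons with a member other than Fam19a4. Of its 13 neurons with Fam19a1, 3 had Fam19a4 against 10.8 expected (ratio 0.277, 0.0571 to 0.810), and 8 had Fam19a2 against 1.94 (ratio 4.13, 1.78 to 8.14). Of its 26 neurons with Fam19a2, 11 had Fam19a4 against 21.8 expected (ratio 0.505, 0.252 to 0.904). The 45 with Fam19a3 had Fam19a4 in 37 cases against 36.5 (ratio 1.01, 0.715 to 1.40). The first 3 of these ratios depended on possible doublets: among the 203 Cd34 neurons left without them, 1 had Fam19a1 and also had Fam19a4, and 8 had Fam19a2, of which 6 had Fam19a4 against 6.92 expected (ratio 0.867, 0.318 to 1.89).

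The genes most like each member over the 12 sets were named by the highest Pearson r. The sets share 1 library pool and differ in depth, and the r values are descriptions. For Fam19a1 these were Sema5a (0.96), a guidance molecule, Serpinb1a (0.95), Fgf9, 0610007N19Rik and Slc16a6 (all 0.94), each with its highest level in the same Calca subset of the Nefh group. For Fam19a2 they were Tnfrsf12a (0.95), Clrn1, Plce1 and S100b (all 0.94) and Rasgrf2 (0.93), and all 5 peaked in subsets of the Nefh group.

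For Fam19a3, Ppm1j was followed by Smim18 (0.96), Trmt10a (0.94), Bai3 (0.89), an adhesion receptor, and Fnta (0.88). For Fam19a4 the list was Zfp703 (0.95), Grhl3 (0.94), Bhlha9 (0.92), Dhh (0.92), a hedgehog ligand, and Dpp10 (0.91), a subunit of potassium channels, all highest in the Cd34 group. Fam19a5 had weaker matches, led by Ptprn2 (0.87), Fndc3b (0.83) and Rgs2 (0.82), then Cpb1 and Pdcd7 (both 0.81). Between members, r was 0.84 for Fam19a1 and Fam19a2, 0.50 for Fam19a3 and Fam19a4, and -0.13 for Fam19a1 and Fam19a4.

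Genes reported as binding partners of TAFA proteins were looked at in the same cells. The neurexin genes Nrxn2 and Nrxn3 were present in every neuron group. Nrxn2 was at 107 CPM (103 to 112) in all neurons, from 65.1 in the Trpm8 group to 139 in the Nefh group. Nrxn3, at 119 CPM (115 to 124), was uneven. It was at 36.8 CPM in the Cd34 group, 40.2 in the Mrgpra3 group and 45.8 in the Mrgprd group, but at 149 in the Nefh group, 170 in the Trpm8 group and 192 in the Calca/Trpv1 group. The Cd34 group, highest for Fam19a4, was thus nominally lowest for Nrxn3, though its interval overlaps those of the Mrgpra3 and Mrgprd groups.

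The other partners were rare. S1pr2 was at 6.21 CPM (5.19 to 7.38) in neurons. It was nominally highest in the Mrgprd group at 15.6 (11.6 to 20.5), an interval that overlaps those of the Mrgpra3, Nppb and Cd34 groups. In the Trpm8 group and in glia it was at 0 UMIs (3 counts would be 1.41 and 6.85 CPM). Gpr1 had 5 UMIs in all neurons, Fpr2 had 3 and Lrrc4b, a postsynaptic adhesion molecule, had 7. Fpr1 was not among the genes of the count table. At this depth, expression of Gpr1, Fpr2 and Lrrc4b in single groups was not detectable above a few UMIs.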

How the data were processed

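Trigeminal ganglion cells of wild type FVB/N mice were profiled by Dropseq in 9 runs. The submitters' processing notes name bcl2fastq 2.17, STAR 2.5.3a, Seurat 1.4.0.16 and build mm10. The table deposited by the authors holds raw UMI counts of 21536 genes in 6997 barcodes of 1000 to 190815 UMIs (median 2031). The counting program, its use of strand and the annotation are not given in the sources used here. Cells carry no run label, so no test was made and all runs are 1 pooled sample.

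From the counts were computed, in Python 3.11.15 with numpy 2.4.6 and scipy 1.17.1, CPM with exact Poisson intervals, shares with Clopper-Pearson intervals, CPM ratios with exact conditional binomial intervals, shares after thinning to 1000 UMIs (the hypergeometric expectation), and overlap of pairs within 10 depth bins (5 bins inside a group). These steps were tested on simulated data. A count of 0 was bounded by 3 counts. Coding sequences were aligned with mafft 7.526.

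Named were the 5 members, the 5 genes most like each over 12 neuron sets, reported partners, and lists of class and cell type markers. One listed partner gene and 1 coding stretch are not reported here. Members, groups and lists were chosen with earlier results of these data known. Non-neuronal cells had 200 to 8500 genes, at most 1 of the 6 neuron markers and at least 3 markers of their type. No limit on mitochondrial UMIs and no doublet caller was applied. Alternatives changed the gene limits, neuron markers, group thresholds, possible doublets, deep cells, thinning, bins and filters.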

Additional observations from a re-analysis of the deposited data

Results flagged for a closer look

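The 35 barcodes with more than 7500 genes, at least 3 neuron markers and no Epcam enter none of the comparisons above and still held UMIs of every member. Their median was 65408 UMIs, against 3014 in the neurons used. Fam19a2 was at 112 CPM (99.5 to 126) in them, with 293 UMIs in 19 barcodes and up to 43 in 1. Fam19a4 was at 60.005 CPM (51.0 to 70.2), Fam19a3 at 41.3 (33.9 to 49.8), Fam19a1 at 29.8 (23.6 to 37.2) and Fam19a5 at 10.3 (6.80 to 15.0). All 5 values are above the level that 3 counts would give (1.15 CPM). Against all neurons used, Fam19a2, Fam19a3 and Fam19a1 were higher there (34.1, 24.7 and 21.3 CPM in neurons) and Fam19a4 lower (89.6 CPM). Whether these barcodes are single large neurons or several cells was not tested.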

How the results depend on the processing

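No paired analysis was possible because the table has 1 group and its columns carry no run number. Under the alternatives run, the CPM ratios of the 5 members in their highest groups and the 10 overlap ratios over all neurons did not change direction where their 95% interval left out equality. Overlap ratios inside the Cd34 group did without possible doublets: Fam19a1 with Fam19a4 went from 0.277 to 1.17, and Fam19a1 with Fam19a2 from 4.13 to 0, both on 1 neuron with Fam19a1. Splits of the Cd34, Nefh and Mrgprd groups by a member, except for Slc17a8, and the subsets of groups were recomputed without possible doublets only. Contrasts between groups were not recomputed. Between Cd34 neurons with and without Fam19a4, the log2 ratio of Cd34 itself changed direction, from 0.31 (0.05 to 0.57) to -0.37 (-0.70 to -0.03). Without possible doublets, the subset levels that left their 95% interval were Fam19a2 (68.5 to 29.2 CPM) and Fam19a3 (29.0 to 8.34) in the Calca subset of the Nefh group, Fam19a5 in its other neurons (17.9 to 10.5) and Fam19a1 in Calca/Trpv1 neurons with Trpa1 (5.54 to 2.48). Of the shares, log2 ratios and overlap ratios over all neurons, the values that left their 95% interval are given next, with the counts of genes that moved by over 1.5 times.

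The shares moved with depth. In the order Fam19a1 to Fam19a5, thinning to 1000 UMIs gave 1.48%, 2.88%, 2.16%, 5.76% and 1.28% of neurons, and asking for 2 UMIs gave 2.20%, 3.24%, 2.65%, 8.30% and 0.674%. Without neurons over 20000 UMIs the shares of Fam19a1 to Fam19a4 were 4.11%, 8.68%, 7.46% and 14.0%. Without possible doublets (3088 neurons left) Fam19a3 was at 7.09%, Fam19a4 at 13.5% and Fam19a5 at 4.31%. With at least 900 genes Fam19a3 was at 9.91% and Fam19a4 at 17.1%.

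Of the log2 ratios, Fam19a2 was at 2.31 without possible doublets and 2.27 with no upper limit on genes, Fam19a3 at 1.69 without neurons over 20000 UMIs, and Fam19a4 at 3.28 with 1 more UMI asked for each group and 3.29 with no upper limit. That last setting, the overlap, splits and subsets within groups without possible doublets, and the 4-fold lower rule with and without its limit of 3 counts were chosen after seeing the data.

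Without depth bins the overlap ratio was 3.65 for Fam19a1 and Fam19a2, 1.52 for Fam19a1 and Fam19a3, 2.13 for Fam19a1 and Fam19a5, 2.36 for Fam19a2 and Fam19a3, 0.925 (0.695 to 1.21) for Fam19a2 and Fam19a4, 1.97 for Fam19a2 and Fam19a5, 2.45 for Fam19a3 and Fam19a4, 1.24 for Fam19a3 and Fam19a5 and 0.784 (0.507 to 1.16) for Fam19a4 and Fam19a5. With 2 UMIs asked of each member it was 1.77 for Fam19a1 and Fam19a3, 2.55 for Fam19a1 and Fam19a5, 2.29 for Fam19a2 and Fam19a3, 2.52 for Fam19a2 and Fam19a5, 1.76 for Fam19a3 and Fam19a5 and 0.871 (0.283 to 2.03) for Fam19a4 and Fam19a5, and the interval of Fam19a3 and Fam19a4 (ratio 1.31, 0.880 to 1.89) then included 1. After thinning it was 0.0728 for Fam19a1 and Fam19a4 (0.239 neurons expected to show both), 1.91 for Fam19a2 and Fam19a3, 1.93 for Fam19a2 and Fam19a5 and 0.179 for Fam19a3 and Fam19a5. Without possible doublets Fam19a3 and Fam19a5 were at 0.378 (0.123 to 0.883).

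The number of genes at least 4-fold higher was 225 in the Mrgpra3 group, 244 in the Nppb group and 299 in the Nefh group with a filter of 20 UMIs (113, 142 and 183 with 50), 104 in the Calca/Trpv1 group with 1 more UMI (164), and 51 in the Trpm8 group without possible doublets (94).

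Of the 50 values of likeness recomputed for the 25 genes named (a pseudocount of 1, or Spearman's rho), 12 moved by over 0.05, and 34 of the 50 ranks stayed within the first 10. The lowest was rank 57 for S100b with Fam19a2 (Spearman). With a pseudocount of 1, Rgs2 was at rank 49 with Fam19a5, Smim18 at 27 with Fam19a3 and Fgf9 at 24 with Fam19a1.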
